A study of Homo sapiens with 12 samples.

Results

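The FOS and JUN families are the core subunits of AP-1, a transcription factor that binds DNA as a pair of leucine-zipper proteins. The 7 genes described here are FOS, FOSB, FOSL1 and FOSL2, which encode the FOS family, and JUN, JUNB and JUND, which encode the JUN family. They were chosen by name from the 34318 genes of the deposited table. No measured value was a criterion, although earlier results of these data were known. All 7 passed the filter on low counts in both comparisons.

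The libraries were made from HEK293T cells, an established line derived from human embryonic kidney and labelled as epithelial. There were 12 stranded mRNA libraries in 4 groups of 3. For knockdown of POLR3A, the gene for the largest subunit of RNA polymerase III (Pol III), cells were lipid-transfected with siPOLR3A or with siControl, a control siRNA, and collected after 2 days. For inhibition, cells were kept for 4 hours in 25 µM ML60218, a small molecule Pol III inhibitor, or in 0.1% DMSO, its vehicle. The cell line field gives HEK293T, which carries the SV40 large T antigen, for all 12 libraries, although the titles of the inhibitor experiment leave out the HEK and the T of the name. The labels name no other engineered allele. Agent, duration and control all differ between the 2 experiments and cannot be told apart. The labels do not say whether replicates came from separate cultures, so p-values measure the spread between these libraries, which may be technical.

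Libraries held between 37008325 and 49479476 estimated reads, of which mitochondrial genes took between 5.38% and 9.73% of those matched to genes. POLR3A stood at 92.2, 93.5 and 86.8 CPM (counts scaled to library size) in siControl and at 19.2, 19.04 and 14.6 CPM in siPOLR3A, a log2 fold change of −2.36 (edgeR adjusted p = 1.938e-05). With ML60218 it was also lower, at −0.38 (edgeR adjusted p = 0.0002291). All 6 genes checked on the epithelial list were above 1 TPM in some library, among them KRT18 at 24.5 to 36.7 TPM and CDH1 at 1.31 to 4.51 TPM. The list also holds CDH2, at 42.7 to 65.6 TPM, and VIM, at 267 to 435 TPM, both better known from mesenchymal cells. The summed level of these 6, most of it VIM, was 457 to 476 TPM in siControl and 349 to 361 in siPOLR3A, and 440 to 472 in DMSO and 492 to 545 in ML60218. Single markers moved in both directions after siPOLR3A, with VIM (log2 −0.52) and CDH2 (−0.20) called lower and EPCAM (0.90), CDH1 (0.47) and KRT18 (0.14) called higher by edgeR. With ML60218 KRT8 was called higher (0.56). Their part in the members' changes was not tested. Of 5 kidney markers, 3 stayed below 1 TPM in every library, with CDH16 at 0. The leukocyte gene PTPRC was at 0 throughout, and both endothelial markers and the hepatocyte marker ALB stayed below 1 TPM. Of 3 fibroblast markers, COL1A1 was at 18.2 to 28.1 TPM, DCN at 0.207 to 1.21 and COL1A2 at 0 to 0.0277. After siPOLR3A COL1A1 was called higher (log2 0.32) and DCN lower (−1.30). These are bulk libraries, in which fewer cells expressing a gene and less RNA per cell cannot be told apart.

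JUN proteins pair with each other or with FOS proteins, whereas FOS proteins need a JUN partner to bind DNA stably. Most of the genes are immediate-early genes: growth factor and stress signals that pass through MAP kinases switch them on within minutes, and their mRNAs are short-lived. JUN activates its own promoter through AP-1-like sites, JUN N-terminal kinases phosphorylate the JUN protein, and JUNB and JUND can oppose JUN at some target genes.

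Promoter sequence is shown first, as a description of the members, and its part in their changes was not tested. The runs are the 100 bases before the RefSeq transcription start (GRCh38.p14), written 5′ to 3′ on the strand of the gene. Capitals mark TGACGT on either strand, the core of the cAMP response element, or TGACATCA, the AP-1-like element of the JUN promoter. RefSeq promoters were matched by symbol for 6 of the 7 members, FOSL1 being the exception.
FOS: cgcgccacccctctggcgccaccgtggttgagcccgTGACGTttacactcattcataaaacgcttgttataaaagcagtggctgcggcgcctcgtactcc
FOSB: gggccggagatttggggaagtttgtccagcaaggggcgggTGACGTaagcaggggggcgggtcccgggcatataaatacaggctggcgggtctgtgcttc
FOSL2: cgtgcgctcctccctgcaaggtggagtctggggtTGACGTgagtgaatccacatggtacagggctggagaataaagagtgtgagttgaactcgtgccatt
JUN: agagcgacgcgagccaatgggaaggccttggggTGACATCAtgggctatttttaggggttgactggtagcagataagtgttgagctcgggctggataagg
JUNB: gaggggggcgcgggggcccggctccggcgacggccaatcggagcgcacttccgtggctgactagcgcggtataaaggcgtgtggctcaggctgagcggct
JUND: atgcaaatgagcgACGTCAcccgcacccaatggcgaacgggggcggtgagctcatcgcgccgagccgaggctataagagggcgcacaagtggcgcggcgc
The FOS window is chr14:75278728-75278827 on the plus strand, FOSB chr19:45467896-45467995 plus, FOSL2 chr2:28392758-28392857 plus, JUN chr1:58784048-58784147 minus, JUNB chr19:12791386-12791485 plus and JUND chr19:18281623-18281722 minus. In GENCODE 29 the JUN and FOSL2 genes start further upstream, so that their windows lie inside the annotated gene. The FOS gene starts at 75278774, so that the later part of its window, TATAAA included, also lies inside, as does the last base of the FOSB window.

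TGACGT began 64 bases before the start in FOS, 60 in FOSB and 66 in FOSL2. In JUND it lay on the opposite strand, where it reads ACGTCA in the printed run, 87 bases before the start. JUN held TGACATCA 67 bases before its start. JUNB held neither. Searched on both strands, TGACGT was in 4.25% and TGACATCA in 1.65% of 35116 RefSeq promoter windows of this length. TGANTCA, with any base at N, is a looser pattern that covers the canonical AP-1 site. It was in 2.75% of windows and in none of the 6. The full cAMP response element TGACGTCA (1.17%), which contains TGACGT, was also in none of the 6. CCAAT, the NF-Y box (18.1% of windows), was in JUN, JUNB and JUND at 87, 67 and 74 bases before the start, and TATAAA (4.99%) was in FOS, FOSB and JUNB at 33, 30 and 31. The motifs were picked with these promoters known, and a match describes letters, not occupancy.

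JUN mRNA was the most abundant of the family in every library, followed by JUND and JUNB. Levels between genes were compared in TPM (abundance corrected for transcript length and library size). In siControl JUN stood at 132, 102 and 115 TPM, JUND at 42.1, 35.9 and 39.0, and JUNB at 14.5, 10.0 and 12.8. FOS followed at 5.30, 2.19 and 4.42 TPM. The mean levels of FOSL1, FOSL2 and FOSB were 2.38 ± 0.485, 1.55 ± 0.396 and 1.27 ± 0.313 TPM (SD, n = 3). The order JUN, JUND, JUNB held in all 4 groups, with no overlap between neighbours, and JUNB lay above every FOS family member. Further down, neighbours in the order overlapped in siControl from FOS to FOSB.

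In DMSO cells the first 3 places were JUN at 96.4 ± 3.19, JUND at 51.2 ± 2.89 and JUNB at 11.2 ± 0.728 TPM (SD, n = 3). FOSL1 (2.05 ± 0.191 TPM) stood above FOS (1.64 ± 0.139 TPM) without overlap, and FOS above FOSL2 (1.34 ± 0.155 TPM), which overlapped FOSB (1.34 ± 0.130 TPM). After ML60218 FOS was in the fourth place at 4.29 ± 0.285 TPM, followed by FOSL2 at 2.94 ± 0.428, FOSB at 2.72 ± 0.508 and FOSL1 at 2.2 ± 0.379, the last 3 overlapping in order. After siPOLR3A the fourth place was FOS at 5.76 ± 0.444 TPM, then FOSL1 at 3.04 ± 0.198, FOSB at 1.74 ± 0.256 and FOSL2 at 1.38 ± 0.113, where the last step overlapped.

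Summed over the 7 members, family mRNA amounted to 200.4, 154 and 176 TPM in siControl and 153, 129 and 137 TPM in siPOLR3A, so that the groups did not overlap. In DMSO it was 165 ± 4.13 and in ML60218 453 ± 146 TPM (SD, n = 3). The JUN family made up 94.9% ± 0.929 of this sum in siControl and 91.5% ± 0.351 in siPOLR3A, 96.1% ± 0.416 in DMSO and 97.2% ± 0.85 in ML60218 (SD, n = 3). The shares of JUN and JUNB in the sum over the 7 members moved in opposite directions. JUN itself was 65.8% ± 0.513 of the sum in siControl and 49.8% ± 1.11 in siPOLR3A, while JUNB was 6.99% ± 0.427 and 14.4% ± 0.929. In DMSO JUN was 58.4% ± 1.40 and JUNB 6.77% ± 0.459, against 70.2% ± 4.00 and 2.74% ± 0.917 in ML60218. The mean level of JUNB itself was 11.17 TPM in DMSO and 11.56 in ML60218, so its smaller share there reflects the larger sum. These JUN and JUNB shares were free of overlap between treated and control libraries in both experiments, whereas the JUN family share overlapped between DMSO and ML60218. Per transcript, JUN exceeded JUNB 9.43 ± 0.666 times in siControl, 3.48 ± 0.310 in siPOLR3A, 8.66 ± 0.809 in DMSO and 28.0 ± 11 in ML60218 (SD, n = 3). Sums, shares and ratios over the members are descriptions and were not tested.

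**Figure D1:**
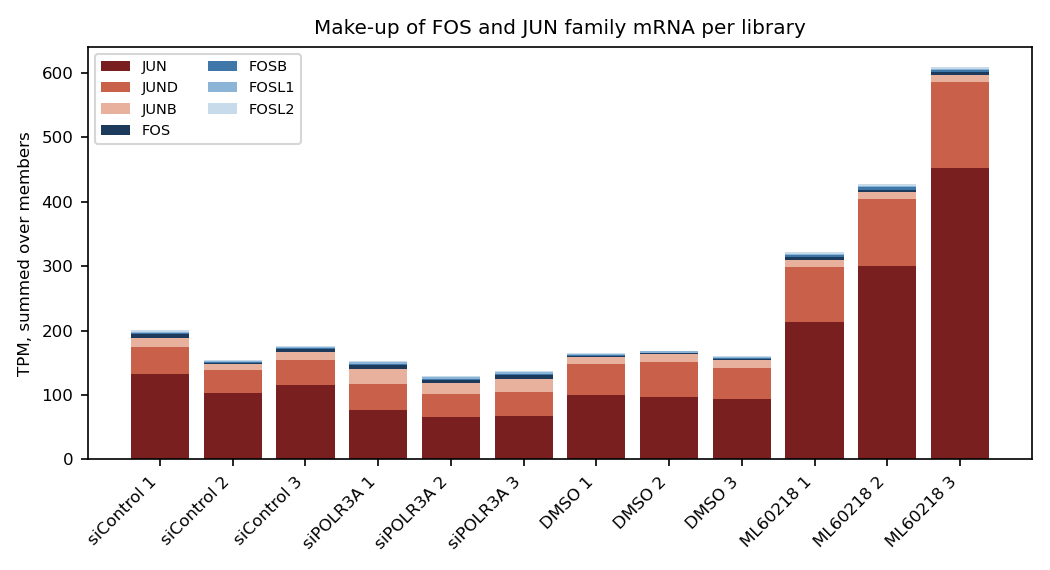
Stacked bars give the TPM of the 7 members in each of the 12 libraries, with JUN family genes in reds and FOS family genes in blues, on a linear axis from 0. JUN forms the largest part of every bar, and the 3 ML60218 bars stand between 322 and 610 TPM, above the 3 DMSO bars at 161 to 169 TPM.

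Knockdown of POLR3A was accompanied by lower JUN and higher JUNB mRNA, with smaller rises of FOSB and FOSL1. Values from here on are CPM for the same gene across libraries, tested with edgeR's quasi-likelihood test and Benjamini-Hochberg adjustment over 15404 genes at 0.05. By this rule 4 of the 7 members were called, 3 higher and 1 lower. The background was high: 56.6% of all genes tested were called (27.4% higher, 29.2% lower), and the share of members is close to it. No member was called with at least a 2-fold change, which 3.82% of genes were.

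JUN, the main JUN family subunit, stood at 264, 219 and 238 CPM in siControl and at 154, 135 and 136 CPM in siPOLR3A. All 3 knockdown libraries lay below all 3 controls. The log2 fold change was −0.76 ± 0.10 (SE, edgeR adjusted p = 0.002299), which is 0.589 of the control level. JUNB, the subunit that can oppose JUN, moved the other way, from 12.4, 9.26 and 11.4 CPM to 19.4, 15.1 and 18.3 CPM. Its groups did not overlap either, and it rose 1.60-fold (log2 0.68 ± 0.14 SE, edgeR adjusted p = 0.005421). Of all genes tested, 63.4% had groups free of overlap, as had these 2 of the 7 members.

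JUNB shares 259 exonic bases with HOOK2, which encodes an adaptor between microtubules and cargo and lies on the opposite strand. HOOK2 itself was higher after siPOLR3A (log2 0.72, edgeR adjusted p = 9.504e-08), with mean TPM of 25.0 in siControl and 40.7 in siPOLR3A. With ML60218 its change was 0.14 (edgeR adjusted p = 0.4807). The kit marks strand, but whether counting used it is not given in the sources used here, and the part of HOOK2 reads in the JUNB value was not tested. With the trend on GC content and length removed, JUNB was at 0.46 (edgeR adjusted p = 0.02568) and kept its call.

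JUND, the steadily expressed JUN family member, was at 25.9, 23.9 and 24.8 CPM in siControl and at 25.6, 22.5 and 24.2 CPM in siPOLR3A. The groups overlapped, and the log2 fold change was −0.04 ± 0.06 (SE, edgeR adjusted p = 0.5355). The JUND transcript has a GC content of 69.7%, higher than in 99.6% of genes, and once the dependence on GC and length was taken out JUND was called lower, at −0.36 (edgeR adjusted p = 6.054e-05).

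Among the FOS family, FOSB was called higher, from 3.98, 2.67 and 3.29 to 5.12, 3.70 and 4.31 CPM (log2 0.40 ± 0.16 SE, edgeR adjusted p = 0.04767). FOSL1, which encodes FRA-1, was also called higher, from 1.98, 1.53 and 1.89 to 2.51, 1.97 and 2.83 CPM (log2 0.44 ± 0.17 SE, edgeR adjusted p = 0.04486). In both genes the second siPOLR3A library lay below the highest control, so the groups overlapped, and both adjusted values sit just under the threshold. DESeq2 called neither (adjusted p = 0.089 for FOSB and 0.1518 for FOSL1).

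FOS itself, the prototype immediate-early gene, gave 5.42, 2.56 and 4.72 CPM in siControl and 6.99, 4.95 and 6.85 CPM in siPOLR3A. The change of 0.57 ± 0.32 on the log2 scale (SE, edgeR adjusted p = 0.2015) was not called, and DESeq2 called it at an adjusted p of 0.02309. FOSL2, which encodes FRA-2, stood at 8.68, 6.20 and 6.69 CPM in siControl and 6.26, 6.35 and 6.09 CPM in siPOLR3A, a change of −0.20 ± 0.12 (SE, edgeR adjusted p = 0.152). The FOSL2 groups overlapped, with the first control library standing above the other 5. With the dependence on GC and length taken out FOSL2 was called lower, at −0.30 (edgeR adjusted p = 0.03582).

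The second siControl library was the lowest of its group for all 7 members. Its mitochondrial share of 9.73% was the highest, against 8.22% and 8.16% in the other controls. The second siPOLR3A library was likewise the lowest of its group for every member but FOSL2. Its mitochondrial share was 8.81%, between 8.64% and 8.98% in the other knockdown libraries. The reason for the likeness was not tested. The part of the second siControl library in the results was not tested beyond leaving it out. Without it the log2 fold change was −0.83 for JUN and 0.57 for JUNB, both called, and 0.27 for FOSB (edgeR adjusted p = 0.1721), 0.33 for FOSL1 (0.1573), 0.31 for FOS (0.1279) and −0.30 for FOSL2, which was then called lower (0.04701).

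**Figure D2:**
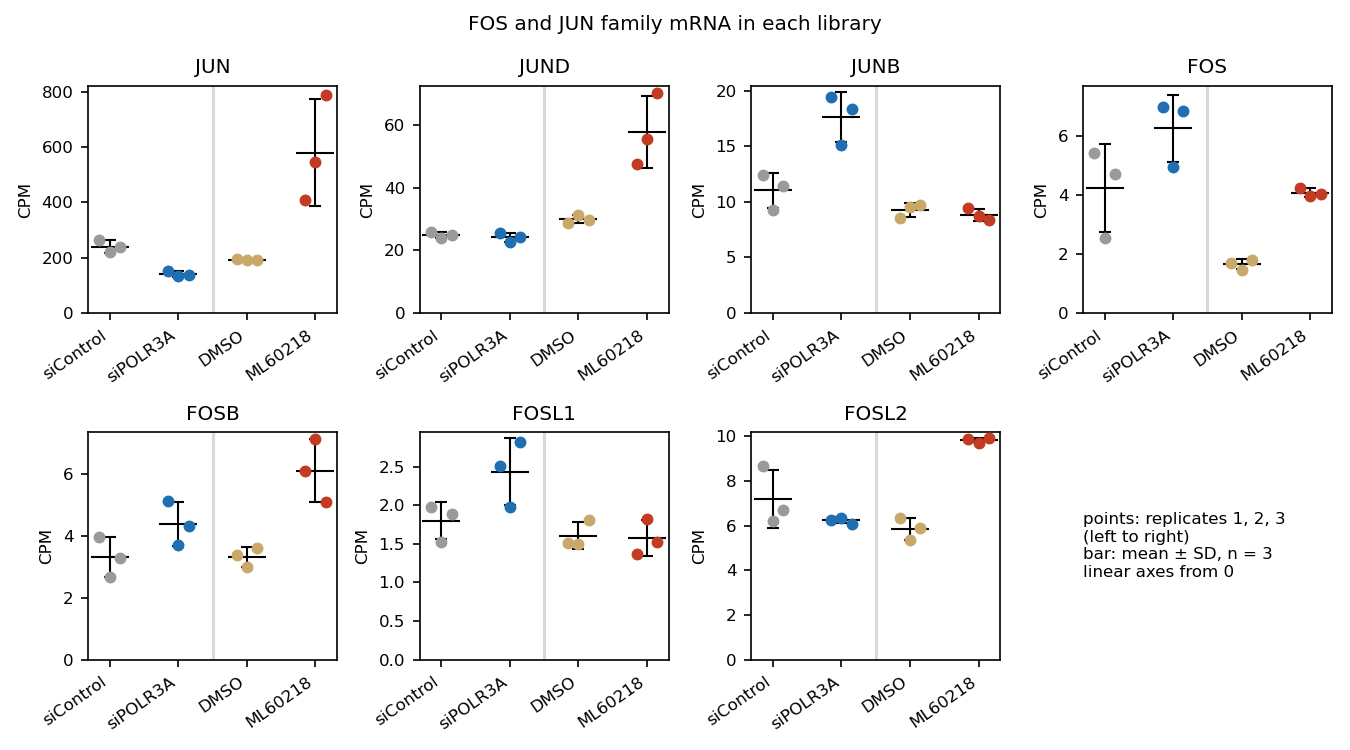
Each panel shows 1 member's CPM in every library on its own linear axis from 0, with the siRNA experiment left and the ML60218 experiment right of the grey line. Points are replicates 1 to 3, and bars give mean ± SD (n = 3). JUN is lower in the siPOLR3A libraries (135 to 154 CPM) than in siControl and higher in the ML60218 libraries (408 to 788 CPM) than in DMSO, JUNB is higher in siPOLR3A, and FOSL1 overlaps in both experiments.

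After 4 hours of ML60218, 5 of the 7 members were higher than in DMSO, namely JUN, FOS, JUND, FOSB and FOSL2, and none was lower. Of 15461 genes tested, 39% were called by the same rule, which divides into 18.1% higher and 20.9% lower. Of the 7 members, these 5 were also free of overlap between groups, against 51.9% of all genes. Call and overlap rest on the same libraries. JUN and FOS were called with at least a 2-fold change, as were 1.32% of all genes.

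JUN stood at 194, 191 and 191 CPM in DMSO and at 408, 545 and 788 CPM in ML60218. The controls were tightly grouped, and the treated libraries were all higher but spread widely. JUN rose 3.02-fold (log2 1.60 ± 0.28 SE, edgeR adjusted p = 0.0145), in position 71 of 15461 genes by the size of the change. The call rests on few libraries: without any 1 of the DMSO libraries the log2 value was 1.59 to 1.61 and the adjusted p 0.06119 to 0.06207. Without the third ML60218 library, the highest, it was 1.31 (edgeR adjusted p = 0.01126).

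JUND went from 28.7, 31.2 and 29.7 CPM to 47.6, 55.6 and 70.0 CPM. It rose 1.94-fold (log2 0.95 ± 0.15 SE, edgeR adjusted p = 0.005475), and its treated libraries had the same order as those of JUN, the first lowest and the third highest. JUNB did not follow: it gave 8.56, 9.52 and 9.75 CPM in DMSO and 9.46, 8.70 and 8.36 CPM in ML60218. Its groups overlapped, and the log2 value was −0.07 ± 0.08 (SE, edgeR adjusted p = 0.5442).

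In the FOS family, FOS rose 2.45-fold, from 1.71, 1.47 and 1.81 CPM to 4.25, 3.95 and 4.05 CPM (log2 1.29 ± 0.13 SE, edgeR adjusted p = 0.0001884). The 3 treated libraries lay close together, unlike those of JUN. FOSL2 rose 1.68-fold, from 6.33, 5.36 and 5.88 CPM to 9.87, 9.73 and 9.93 CPM (log2 0.75 ± 0.09 SE, edgeR adjusted p = 0.0002829). FOSB rose 1.83-fold, from 3.37, 2.99 and 3.62 CPM to 6.11, 7.13 and 5.09 CPM (log2 0.87 ± 0.14 SE, edgeR adjusted p = 0.001246), with its highest value in the second treated library and its lowest in the third. FOSL1 stayed at 1.51, 1.49 and 1.81 CPM in DMSO against 1.37, 1.82 and 1.53 CPM in ML60218, which overlapped (log2 −0.03 ± 0.17 SE, edgeR adjusted p = 0.9073).

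The FOS family counts are small. FOS was covered by 65 to 77 estimated reads a library in DMSO and by 143 to 183 in ML60218, and FOSL1 by 50 to 77 reads in this experiment, whereas JUN had between 7837 and 35631. Replicates of FOS, FOSB and FOSL1 in the siRNA experiment rested on 55 to 270 reads each.

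**Figure D3:**
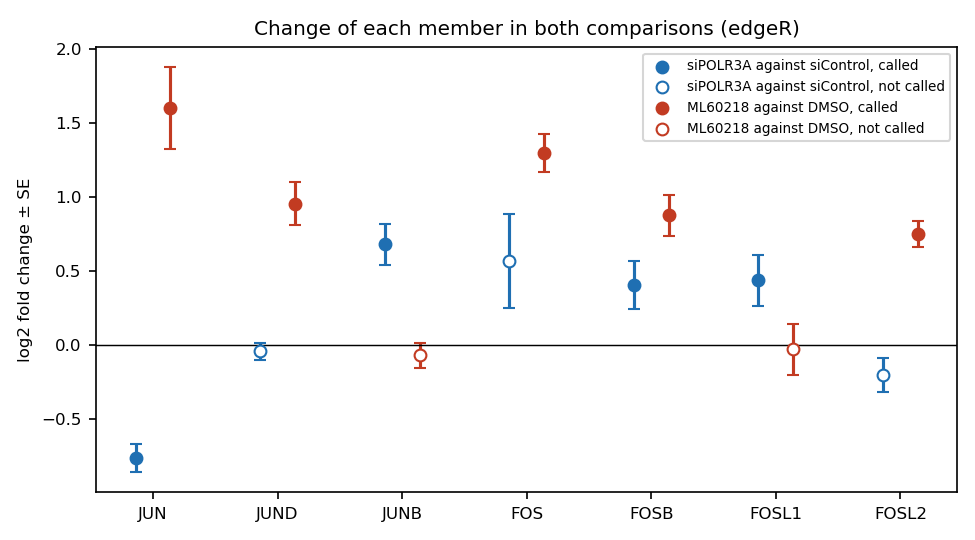
Points give the log2 fold change of each member with its SE (edgeR), siPOLR3A against siControl in blue and ML60218 against DMSO in red, filled where the adjusted p was under 0.05. JUN lies at −0.76 and 1.60, JUNB at 0.68 and −0.07, and JUND at −0.04 and 0.95.

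The difference between the 2 responses was tested by fitting all 12 libraries together and subtracting the ML60218 effect from that of siPOLR3A. It was called for 4 of the 7 members, against 50.9% of 15780 genes (24.5% positive, 26.4% negative), so the count itself is near the background. The difference was −2.36 ± 0.30 for JUN (SE, edgeR adjusted p = 0.0001977), −0.99 ± 0.17 for JUND (0.0007839) and −0.95 ± 0.15 for FOSL2 (8.66e-05), each lower after siPOLR3A than with ML60218. JUNB differed the other way, by 0.75 ± 0.16 (SE, edgeR adjusted p = 0.0009448). For FOS the difference was −0.72 ± 0.33 (0.08317), for FOSB −0.47 ± 0.23 (0.1072) and for FOSL1 0.47 ± 0.25 (0.1261), which missed the threshold without showing that the responses were alike. JUN was thus called in both comparisons with opposite signs, and FOSB in both with the same sign. The contrasts share no library.

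The members differ in gene structure. JUN (ENSG00000177606, chr1:58780788-58784327, minus strand, GRCh38), JUNB (ENSG00000171223, chr19:12791496-12793315, plus) and JUND (ENSG00000130522, chr19:18279760-18281622, minus) consist of 1 exon each. FOS (ENSG00000170345, chr14:75278774-75282230, plus), FOSB (ENSG00000125740, chr19:45467995-45475179, plus), FOSL1 (ENSG00000175592, chr11:65892049-65900573, minus) and FOSL2 (ENSG00000075426, chr2:28392448-28417312, plus) have 4 exons in their main transcript. The 1-exon genes are read almost wholly as 1 transcript, at 99.8% or more of a gene's reads. The main transcript took 84.5% to 96.3% of FOS reads and 92.3% to 100% of FOSL2 reads per library. For FOSB it took 37.4% to 86.1% and for FOSL1 9.04% to 78%, so the level of these 2 genes depends on how reads were split between isoforms. With an offset for isoform length, FOSB (edgeR adjusted p = 0.07508) and FOSL1 (0.1461) lost their calls after siPOLR3A. FOSB overlaps ERCC1, a DNA repair gene on the opposite strand, in no exonic base.

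AU-rich elements in the 3′ UTR, built from the pentamer ATTTA, mark many immediate-early mRNAs for rapid decay. In the main GENCODE 29 transcripts FOS held 5 ATTTA in 806 bases, or 6.20 per kilobase, which is the 94.3rd percentile of 13902 genes scanned. It was the member that also held the nonamer ATTTATTTA, as did 6.4% of genes. JUNB held 2 in 500 bases (4.00 per kilobase, 83.3rd percentile) and JUN 3 in 1287 bases (2.33 per kilobase, 62.3rd percentile). FOSL2 held 9 in 4864 bases, FOSB 3 in 2166, FOSL1 1 in 666 and JUND 1 in 681, all between 1.38 and 1.85 per kilobase and close to the median of 1.55. The hexamer GAGGGA, searched because earlier results on these data had used it, was found 2 times each in JUN and FOSL2 and 1 time in FOSB, as in 33.0% of genes, and GACGTA (3.58% of genes) in no member.

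Around the members, the lists of partners, kinases and targets were counted by the same test. After siPOLR3A, the dimer partners (ATF, BATF, JDP, MAF and CREB5 genes) gave 3 higher and 2 lower of 13 tested, with a median log2 change of −0.01 beside 0.01 over all genes. The counts here and in the next paragraph stand beside 27.4% higher and 29.2% lower among all genes tested. MAFA, a large MAF protein, rose by 0.77, MAFK, a small one, rose by 0.52, and CREB5 fell by 0.76 from 88.8 ± 5.85 to 52.4 ± 2.79 CPM (SD, n = 3). Of 14 MAP kinases and their activators, 8 were higher and 5 lower (median 0.17). MAPK8, which encodes the JUN N-terminal kinase JNK1, fell by 0.75, from 63.4 ± 2.03 to 37.6 ± 0.783 CPM (SD, n = 3). MAP2K4, a kinase that activates JNK, rose from 41.9 ± 1.14 to 73.4 ± 2.12 CPM (log2 0.81), and MAPK7, or ERK5, rose by 0.49. The regulators of immediate-early transcription listed with SRF gave 3 higher and 6 lower of 10 (median −0.26), with MEF2D at −0.82, ELK4 at −0.61 and ELK3 at 0.63. SRF and the ternary complex factors ELK1, ELK3 and ELK4 bind the serum response element of FOS.

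MAP kinase phosphatases, which switch those kinases off, gave 3 higher and 0 lower of 9 tested (median 0.11). DUSP6, an ERK phosphatase, rose from 0.580 ± 0.0698 to 1.41 ± 0.140 CPM (log2 1.27), and DUSP2 from 2.60 ± 0.151 to 5.15 ± 0.180 CPM (log2 0.98). The third, DUSP9, was at 0.12, and it was called lower with the GC and length trend removed (−0.12). Among proteins that bind AU-rich elements, 4 of 8 were higher and 4 lower (median 0.00). The higher ones were ZFP36L2 (log2 0.80), ZFP36 (0.51), ZFP36L1 (0.34) and ELAVL1 (0.12). The lower ones were TIA1 (−0.231), HNRNPD (−0.186), TIAL1 (−0.139) and KHSRP (−0.116). In the list of protein turnover and coactivation, 2 of 8 were higher and 3 lower (median −0.05). ITCH, a ubiquitin ligase for JUN and JUNB proteins, fell from 59.8 ± 2.83 to 28.5 ± 6.34 CPM (log2 −1.06), RNF187, a JUN coactivator, rose by 0.58, and DET1 fell by 0.39. Of 16 textbook AP-1 targets tested out of 23 listed, 4 were higher and 3 lower (median 0.13). CXCL8, a chemokine, went from 0.189 ± 0.157 to 1.43 ± 0.533 CPM (log2 2.87), at very low counts. Its value was 3.78 without the third siControl library and 1.16 by limma on log2(TPM + 1) with no filter, both called. By contrast, PLAU and CD44 fell by 0.54 and 0.50. By limma on log2(TPM + 1) with no filter, CREB5 (adjusted p = 0.05251), DUSP6 (0.07842), DET1 (0.08401) and PLAU (0.1321) were not called, and CREB5 was at −0.24. The collagenase and stromelysin genes MMP1, MMP3, MMP9 and MMP13, and IL6 and SPP1, were among those too low to test. Unless another fit or setting is named, log2 values in this paragraph and the one before are from edgeR with adjusted p under 0.05.

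With ML60218, the dimer partners gave 5 higher and 2 lower of 13 (median 0.05 beside 0.01 over all genes). Among all genes tested, 18.1% were higher and 20.9% lower, which is the background for the counts here and in the next paragraph. ATF3, a stress-induced partner of JUN, rose from 25.4, 27.3 and 27.3 CPM to 97.1, 130 and 160 CPM, or 4.85-fold (log2 2.28 ± 0.22 SE, edgeR adjusted p = 0.002225). Its treated libraries were ordered as those of JUN and JUND were. JDP2, another partner that can repress AP-1, rose 2.77-fold, from 3.12 ± 0.394 to 8.65 ± 0.836 CPM (SD, n = 3), and CREB5 1.69-fold, from 56.6 ± 0.802 to 95.4 ± 11.1 CPM. CREB5 was thus called by edgeR in both comparisons with opposite signs, as JUN was. Its call after siPOLR3A was lost in the limma fit named above. Opposite calls were not particular to CREB5. Among the partners, JDP2 was at −0.377 after siPOLR3A and 1.471 with ML60218, MAF at 0.497 and −0.455, and MAFA at 0.771 and −0.355. In other lists MAP2K4, MAPK7, RNF187 and DET1 were also called by edgeR with opposite signs. Of the 14 MAP kinases and activators, 0 were higher and 7 lower (median −0.13), led by MAP2K3 at −0.64, MAP2K4 at −0.31 and MAPK7 at −0.27. MAPK7 was at 0.01 in limma fits of TPM, which did not call MAP2K4 either. The SRF list gave 0 higher and 4 lower of 10 (median −0.09). SRF itself fell from 60.3 ± 0.498 to 42.9 ± 3.62 CPM (log2 −0.49), MEF2C was at −0.35 and ELK1 at −0.30, and the limma fits of TPM called SRF but not MEF2C or ELK1.

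Of the 9 phosphatases tested with ML60218, 2 were higher and 1 lower (median 0.23). DUSP1, itself an immediate-early gene that acts on JNK and p38, rose from 18.6, 19.02 and 20.4 CPM to 42.7, 59.2 and 94.1 CPM (log2 1.76 ± 0.35 SE, edgeR adjusted p = 0.02001), again lowest in the first and highest in the third treated library. Like JUN, DUSP1 lost its call without any 1 DMSO library (adjusted p = 0.0732 to 0.08023). DUSP10 was at 0.48 and DUSP7 at −0.43. Proteins binding AU-rich elements gave 1 higher and 4 lower of 8 (median −0.12), with ZFP36L1 at 0.19, ELAVL1 at −0.16 and KHSRP at −0.14. The limma fits of TPM did not call ELAVL1 or KHSRP. ZFP36L1 lost its call in 3 of its alternatives, with an edgeR adjusted p of up to 0.0584 when 1 library was left out. In the turnover list 2 of 8 were higher and 1 lower (median 0.08), with DET1 at 0.37, CREBBP at 0.21 and RNF187 at −0.49. DET1 lost its call in 2 of its alternatives. CREBBP lost its call in 13 of its alternatives (adjusted p up to 0.2207), and RNF187 in the 3 limma fits of TPM, where its adjusted p reached 0.1853. Of the 16 AP-1 targets, 4 were higher and 5 lower (median −0.03). VEGFA, an angiogenic growth factor, rose 1.49-fold, from 49.0 ± 2.61 to 73.2 ± 2.68 CPM (SD, n = 3). AREG, an EGF receptor ligand, was called higher at 0.165 and 0.502 CPM, and CXCL8 at 0.292 and 0.540 CPM, both at very low counts. CXCL8 lost its call in 11 of its alternatives, among them DESeq2 (adjusted p = 0.1741). AREG lost its call in 3 of its alternatives, with an edgeR adjusted p of up to 0.07279 when 1 library was left out.

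**Figure D4:**
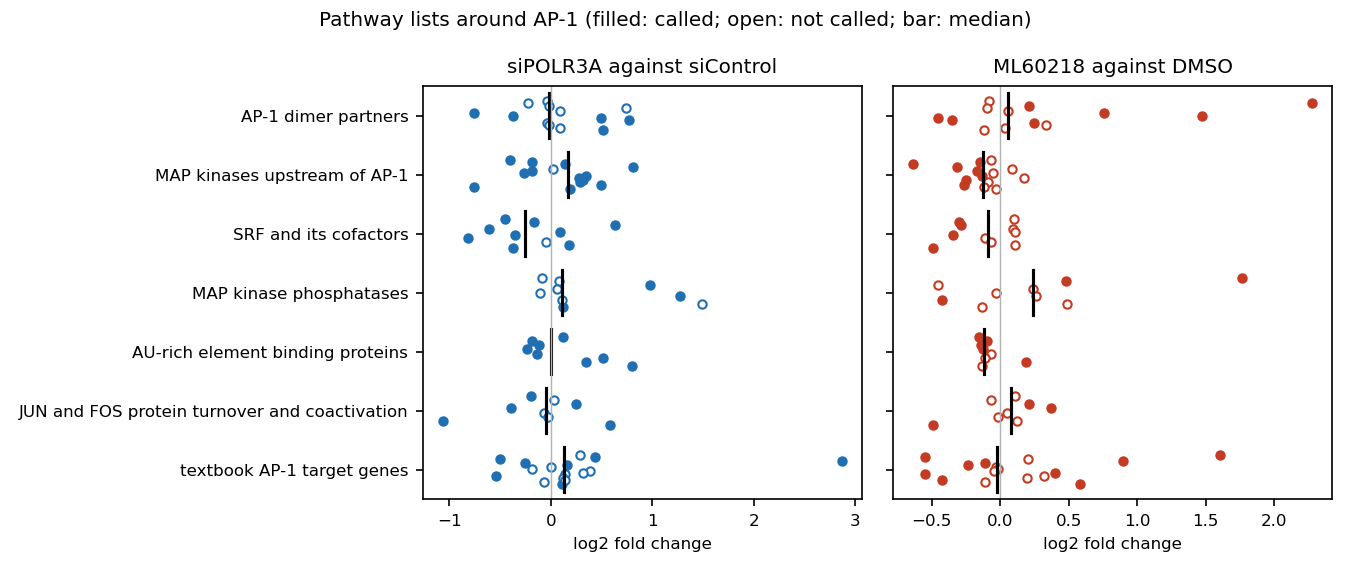
Each point is a gene of 1 of 7 lists around AP-1, placed by its log2 fold change after siPOLR3A (left, blue) or with ML60218 (right, red), filled where called, with a black bar at the list's median. The medians lie between −0.26 and 0.23, while single genes reach 2.87 (CXCL8 after siPOLR3A) and 2.28 (ATF3 with ML60218).

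Genes with the profile nearest to a member were sought among 10291 protein-coding genes over all 12 libraries, as the root mean square difference of log2 CPM after centring each experiment on its controls. For JUN the nearest were DDIT4, an inhibitor of mTORC1 signalling, at 0.22, KRCC1 at 0.29 and LRRC8D, a subunit of volume-regulated anion channels, at 0.31, beside a median of 0.90 over all candidates. Their log2 fold changes were −0.58 and 1.5 for DDIT4, −0.41 and 1.16 for KRCC1, and −0.20 and 1.48 for LRRC8D, after siPOLR3A and with ML60218. FOSB was the other member called in both comparisons. Its nearest were BHLHE40, a transcriptional repressor of the circadian system, at 0.19, TMEM231, a protein of the ciliary transition zone, at 0.19, and SAT1, an enzyme of polyamine breakdown, at 0.20, beside a median of 0.55. They changed by 0.36 and 0.78, 0.26 and 0.70, and 0.29 and 0.88. This is a description of likeness over libraries that share their groups.

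**Figure D5:**
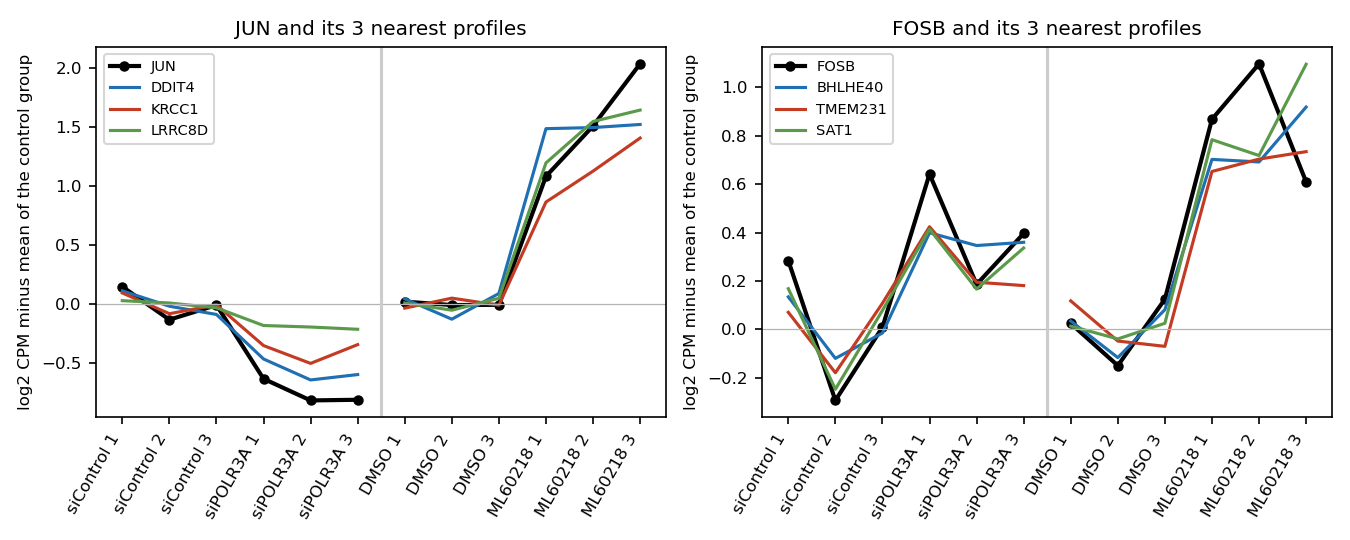
Lines join the log2 CPM of JUN (left) and FOSB (right), in black, and of the 3 genes with the nearest profiles over the 12 libraries, each experiment centred on its 3 control libraries. The lines only guide the eye, since replicates have no order. DDIT4, KRCC1 and LRRC8D lie below 0 in siPOLR3A and above 0.8 in ML60218, as JUN does.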

How the data were processed

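Messenger RNA of 12 HEK293T libraries was analysed from 1 table. Per the file headers, the deposited table holds salmon's estimated counts and TPM for 194142 transcripts; per the submitters' processing notes, bcl2fastq 2.20, Trim Galore and DESeq2 were used with hg38. The salmon version and settings are not given in the sources used here. Column names gave each library's group and replicate.

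Transcripts were assigned to genes through GENCODE 29, which matched 81.6% of transcripts in 34318 genes; unmatched transcripts (8.37% to 8.97% of reads) were left out. Estimated counts were summed per gene, rounded, filtered (filterByExpr, minimum count 10) and tested with edgeR 4.0.16 (TMM, robust quasi-likelihood) in R 4.3.3, on the libraries of each comparison, or on all 12 for the difference. The threshold for a call was 0.05 after Benjamini-Hochberg adjustment. TPM were summed per gene for comparing members. Gene models of the table may be newer than GENCODE 29: JUN has 3257 bases in the table and 3540 in GENCODE 29. Scripts were tested on simulated counts. Estimated counts limit precision for low genes, and repeated PCR reads are not independent molecules.

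Members, lists and motifs were chosen with earlier results of these data known. All 7 members were named; from each list at most the 3 called genes of largest absolute log2 fold change per comparison; and the 3 nearest profiles for JUN and for any other member called in both comparisons. Alternatives were other normalizations, no filter, DESeq2 1.42.0, limma 3.58.1 on log2(TPM + 1) or log2(TPM + 0.1), an isoform length offset, neighbouring transcripts, a GC and length trend, a replicate block, a fit of all 12 libraries and leaving out each library. Some listed genes are not reported here.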

Additional observations from a re-analysis of the deposited data

Results flagged for a closer look

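In 4 members the response to siPOLR3A and the response to ML60218 differed by the test of the difference itself. JUN fell after siPOLR3A and rose with ML60218, a difference of −2.36 on the log2 scale (edgeR adjusted p = 0.0001977), with all 3 treated libraries below their controls in the first experiment and above them in the second. JUND differed by −0.99 (edgeR adjusted p = 0.0007839) and FOSL2 by −0.95 (edgeR adjusted p = 8.66e-05), both higher with ML60218 and not called after siPOLR3A. JUNB differed by 0.75 (edgeR adjusted p = 0.0009448), higher after siPOLR3A and not called with ML60218. Knockdown lasted 2 days and the inhibitor 4 hours, and agent and duration cannot be told apart.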

How the results depend on the processing

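JUN and JUNB after siPOLR3A, the 4 members other than JUN called with ML60218, and the 4 called differences kept their direction and call under every alternative run, single libraries left out included. The number of members called after siPOLR3A was 4, and 2 (JUN and JUNB) with limma on log2(TPM + 1), on log2(TPM + 0.1), on log2(TPM + 1) with no filter and with an offset for isoform length; leaving out 1 library gave 2 to 4. FOSB and FOSL1 were the calls lost. The highest count was 6, with the replicate block and the GC and length trend removed (all but FOSL1: FOS, FOSB and JUNB higher, FOSL2, JUN and JUND lower). With ML60218 the number of genes called was 6029, and 2258 by limma on log2(TPM + 1) with no filter; leaving out 1 library gave 4159 to 6501 genes and 4 to 5 members. For the difference, leaving out 1 library gave 4 to 6 members; FOS (−0.99, edgeR adjusted p = 0.001123) and FOSB (−0.60, 0.03945) passed without the second siControl library, and FOSB (−0.59, 0.04268) without the third ML60218 library. DUSP9 reversed after siPOLR3A with the GC and length trend removed, to −0.122 alone and −0.123 with the block, and MAPK7 with ML60218 in the 3 limma fits, to 0.007; the cause was not tested.

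Taken over 10386 genes, same-numbered libraries did not deviate together (correlation of deviations −0.106 to −0.023). The numbers thus do not pair the libraries over these genes as a whole, which does not settle it for single genes. In the siRNA experiment the second replicate had the lowest CPM of both groups for every member but FOSL2. Pairing for the members alone was not tested. With a replicate block FOS was called after siPOLR3A (0.60, edgeR adjusted p = 0.0007786), JUN was not called with ML60218 (1.54, 0.05841), and the FOS difference was called (−0.68, 0.01074); members called were 5, 4 and 5. Among called genes, 48.4% were higher after siPOLR3A and 46.4% with ML60218. Library totals gave 57% and 67%, and upper-quartile scaling 58.7% and 58.6%. For ML60218 the limma fits gave 81.8%, 81.9% and 78.4%, and removing the GC and length trend 34.8% (34.1% with the block). For the difference they moved it from 48.2% to 32%, 31.9% and 32.6%. The median of all genes moved to 0.12 and 0.13 in the filtered limma fits of ML60218. FOS, FOSB and FOSL1 are limited by depth, at 50 to 270 reads a library.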
